A study of Mus musculus with 32 samples.

Results

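Epidermal keratins are the filament proteins of the skin's keratinocytes, and 8 of them were chosen by name: Krt5, Krt14 and Krt15 of the basal layer, Krt1 and Krt10 of the differentiating layers above it, and Krt6a, Krt16 and Krt17 of wounded skin and the hair follicle. Of these 8 genes, 6 had a row among the 39676 genes of the count table, and Krt1 and Krt6a were not analysed here. The 6 genes were read across 32 tumors grown from AB1 cells in BALB/c mice or from AE17 cells in C57BL/6 mice, with 8 tumors in each of 4 groups: AB1 intrapleural (IPL), AB1 subcutaneous (SC), AE17 IPL and AE17 SC. AB1 and AE17 are mouse mesothelioma cell lines, that is, lines from a cancer of the lining of the chest cavity. Female mice aged 8 to 10 weeks received 500000 AB1 cells or 1000000 AE17 cells in the pleural space or under the shaved skin of the right flank, were left untreated, and gave their tumors on day 10. RNA came from whole tumor tissue, so a lower level in fewer cells of a type and a lower level per cell cannot be told apart, and the cell line cannot be told apart from the mouse strain it grew in. The experiment was set up with 8 mice in each group, the number of tumors deposited for it.

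Keratin filaments are built from pairs, each of a type I and a type II keratin. In skin, Krt5 (type II) pairs with Krt14 (type I) in the basal keratinocytes that divide, Krt15 (type I) marks basal cells and the stem cells of the hair follicle bulge, and keratinocytes that leave the basal layer switch to Krt1 (type II) with Krt10 (type I). Krt6a (type II), Krt16 and Krt17 (both type I) are made in the outer root sheath of the hair follicle and are induced in the epidermis after wounding or other stress. Mesothelial cells, from which mesothelioma arises, are known for the simple epithelial keratins, among others, and for Wt1 and Upk3b.

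The 5 type I genes with a row lie close together on chromosome 11 and Krt5 lies on chromosome 15, all on the minus strand of GRCm38. Reads were 50 bases long, so stretches of that length that occur in more than 1 gene limit how a read can be assigned. Of all 50-base words of the Krt16 transcripts, 37.6% also occurred in another gene, against 13.9% for Krt14, 12.2% for Krt5, 3.99% for Krt17, 2.37% for Krt10 and 0.640% for Krt15. Krt16 shared 382 words with Gm11597, an unprocessed pseudogene, and 188 with Krt14. Krt5 shared 150 words with Krt6a, which was not analysed here. The coding sequences of Krt14 and Krt16 were 86.0% identical, with a longest identical run of 134 bases, and those of Krt14 and Krt17 were 83.8% identical with a longest run of 71 bases. Krt5 and Krt14 were 62.2% identical with no run above 16 bases. The stretch of 90 coding bases in exon 1 that follows shows this at its closest: capitals mark bases that differ from Krt14, and the positions are chr11:100207039-100207128 for Krt14, chr11:100248498-100248587 for Krt16, chr11:100260660-100260749 for Krt17, chr11:100135511-100135600 for Krt15 and chr11:99388874-99388963 for Krt10 (GENCODE M21, GRCm38, minus strand).
Krt14: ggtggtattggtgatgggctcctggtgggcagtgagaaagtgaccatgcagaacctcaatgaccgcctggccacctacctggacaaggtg
Krt16: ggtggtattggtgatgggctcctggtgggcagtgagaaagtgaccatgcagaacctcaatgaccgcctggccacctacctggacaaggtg
Krt17: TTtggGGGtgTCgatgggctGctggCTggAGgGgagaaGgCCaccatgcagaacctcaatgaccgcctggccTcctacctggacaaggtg
Krt15: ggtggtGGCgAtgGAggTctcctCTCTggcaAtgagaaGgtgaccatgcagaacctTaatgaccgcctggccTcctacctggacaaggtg
Krt10: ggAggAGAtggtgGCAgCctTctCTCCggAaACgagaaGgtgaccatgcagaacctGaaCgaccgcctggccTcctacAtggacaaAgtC
Krt16 differed from Krt14 at 0 of the 90 positions, Krt15 at 15, Krt17 at 17 and Krt10 at 23. A read that falls within this stretch cannot be given to Krt14 or Krt16, so small counts of either gene are uncertain to that degree.

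The libraries held 15432258 to 20649645 counts, with a median of 17230192. At that depth 3 counts, the limit that a count of 0 allows, corresponded to 0.145 to 0.194 CPM (counts scaled to a library of 1000000), and such limits cover counting error only. Of the 6 keratins, 5 fell under this limit in some tumors. Krt10 had 10 to 51 reads in every tumor, while Krt5 had a read in 12 of 32 tumors and reached 3 reads in 4 of them. The sequencing lane in the column names followed the groups closely. All 8 AB1 IPL tumors and 2 AB1 SC tumors were on lane 3, the other 6 AB1 SC tumors and 5 AE17 IPL tumors on lane 2, and 3 AE17 IPL tumors and all 8 AE17 SC tumors on lane 1.

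**Figure D1:**
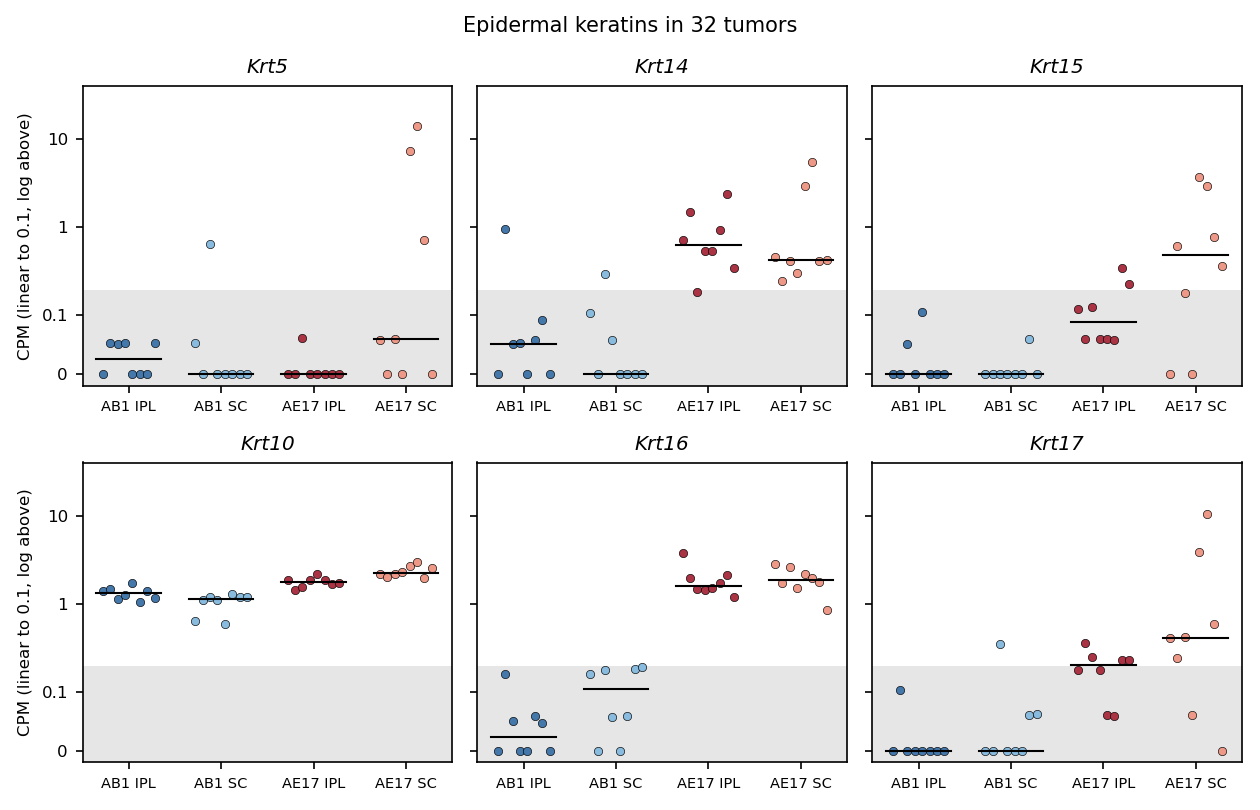
CPM of the 6 keratins in each of 32 tumors by group (8 tumors a group; bars are medians; the axis is linear to 0.1 CPM and logarithmic above). The gray band ends at 0.194 CPM, the highest level that 3 counts gave; Krt10 lies above it in every tumor, Krt16 lies above it in the AE17 tumors and within it in the AB1 tumors, and Krt5 leaves it in 4 tumors.

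Krt5, the type II keratin of basal keratinocytes, was at 0 or 1 read in 28 tumors and high in a few AE17 SC tumors. In AE17 SC tumors 1 to 8 its counts were 1, 0, 1, 0, 115, 242, 12 and 0, a highest level of 14.1 CPM against a group median of 0.0590 CPM. The AE17 IPL tumors held 1 read between them, the AB1 IPL tumors 4, and the AB1 SC tumors 12, of which 11 were in tumor 3. Thus AE17 SC tumors 5, 6 and 7 held 95.1% of all Krt5 reads of the series, and the other 5 tumors of that group overlapped with each other group.

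Krt14, the type I partner of Krt5, was spread more widely. Its counts in AE17 SC tumors 1 to 8 were 8, 4, 7, 5, 46, 95, 7 and 7, and in AE17 IPL tumors 1 to 8 they were 12, 25, 3, 9, 9, 16, 41 and 6. Every AE17 tumor had at least 3 Krt14 reads, and both AE17 groups overlapped, with medians of 0.422 CPM (SC) and 0.628 CPM (IPL). Among AB1 tumors, IPL tumor 2 had 18 reads and SC tumor 3 had 5, and the other AB1 tumors had 0 to 2. In AE17 SC tumors 5 and 6 the level of Krt5 per kilobase was 2.00 and 2.04 times that of Krt14, while in the AE17 IPL tumors Krt14 was read without Krt5: 121 reads of Krt14 stood beside 1 of Krt5.

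Krt15, the type I keratin of basal and bulge cells, had 59, 51 and 13 reads in AE17 SC tumors 5, 6 and 7, 10 in tumor 2, 6 in tumor 8, 3 in tumor 3 and none in tumors 1 and 4. In AE17 IPL tumors it had 1 to 6 reads with a median of 1.5, and in the 16 AB1 tumors 0 to 2. Of the 8 AE17 SC tumors, 5 were above every AE17 IPL tumor, and 2 were below all of them.

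Krt10, the type I keratin of differentiating keratinocytes, was the only member read in every tumor and differed least between tumors. It had 18 to 32 reads in AB1 IPL tumors (median 26), 10 to 22 in AB1 SC tumors (median 19.5), 24 to 36 in AE17 IPL tumors (median 30.5) and 33 to 51 in AE17 SC tumors (median 37.5). The group means were 1.32 ± 0.22 CPM (SD, n = 8) for AB1 IPL, 1.04 ± 0.27 for AB1 SC, 1.76 ± 0.23 for AE17 IPL and 2.34 ± 0.35 for AE17 SC. The AB1 SC and AE17 SC tumors did not overlap, and the 2 sites overlapped within each line. How many of all genes show no overlap between these groups was not counted. AE17 SC tumors 5, 6 and 7 held 126 of its 898 reads in the series.

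Krt16, a type I keratin of wounded epidermis and the outer root sheath, separated the lines at both sites. It had 21 to 64 reads in AE17 IPL tumors (median 27) and 14 to 49 in AE17 SC tumors (median 32), against 0 to 3 in every AB1 tumor. The group means were 1.90 ± 0.82 CPM (SD, n = 8) for AE17 IPL and 1.93 ± 0.63 for AE17 SC, and 0.0394 ± 0.055 for AB1 IPL and 0.103 ± 0.082 for AB1 SC. No AB1 tumor overlapped with an AE17 tumor, and the highest level, 3.80 CPM, was that of AE17 IPL tumor 1. The share of all genes with such a gap between the lines was not counted. Between the lines, 58.3% (SC) and 63.4% (IPL) of 15681 genes passed the test. Reads of Gm11597, which shares sequence with Krt16, moved with it: 6 to 21 in AE17 IPL tumors, 3 to 13 in AE17 SC tumors and 0 to 2 in AB1 tumors. How many reads belong to the gene and how many to the pseudogene was not tested.

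Krt17, a type I keratin of the hair follicle and of stressed epidermis, had 7, 4, 7, 1, 61, 177, 10 and 0 reads in AE17 SC tumors 1 to 8. In the AE17 IPL tumors it had 1 to 6 reads with a median of 3.5. Of the 16 AB1 tumors, 12 had none, SC tumor 3 had 6 and the others had 1 or 2. Its highest tumor was that of Krt5, and AE17 SC tumors 5, 6 and 7 held 81.8% of its reads.

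Compared per kilobase of exon, since longer genes collect more reads, the order of the members differed between the mean and the median of the AE17 SC tumors. By mean level, Krt17 (1.28 CPM per kilobase), Krt5 (1.26), Krt16 (1.23) and Krt10 (1.11) were close together, followed by Krt14 (0.761) and Krt15 (0.610). By median level Krt16 (1.20) and Krt10 (1.05) were first, Krt15 (0.275), Krt17 (0.266) and Krt14 (0.240) were close together, and Krt5 (0.0269) was last. In the AE17 IPL tumors the order of mean levels was Krt16 (1.21), Krt10 (0.833), Krt14 (0.505), Krt17 (0.124), Krt15 (0.0745) and Krt5 (0.00351). In both AB1 groups Krt10 was first, at 0.626 (IPL) and 0.490 (SC) CPM per kilobase, and every other member had a mean level under 0.09. In each of these orders neighbors overlapped over the tumors, except Krt10 and Krt16 in AB1 SC tumors and Krt15 and Krt5 in AE17 IPL tumors.

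The first comparison asked whether the keratins differed between IPL and SC tumors of the same line, the contrast of an invasive with a less invasive site for which the series was made. In AB1 tumors the only member with enough reads for the count filter, Krt10, had a log2 fold change (IPL minus SC) of 0.34 ± 0.18 (SE), with an adjusted p of 0.19. Thus 0 of 1 tested members passed an adjusted p of 0.05, where 23% of 14645 genes did. Within lane 3, the level of Krt10 was 1.32 CPM in the 8 AB1 IPL tumors on average and 0.871 CPM in the 2 AB1 SC tumors. Fitted with no filter, 0 of 6 members passed, where 13.5% of 28091 genes did, and none of the 6 had an unadjusted p under 0.05. DESeq2, with 4 members tested, and limma, with 1, also called none, where they called 21.3% and 31.5% of all genes tested. Krt5 was at -1.51 ± 1.06 on the log2 scale, but SC tumor 3 set its sign: without it the value was 1.14 (adjusted p = 0.48, and 0.35 to 1.0 over 23 alternatives). Krt14 was at 1.29 ± 1.03, and IPL tumor 2 set its sign: without it the value was -0.55 (adjusted p = 0.73, and 0.22 to 0.95 over 23 alternatives). For Krt17, 8 reads in SC and 2 in IPL tumors gave a ratio of 4.41, with an exact 95% counting interval of 0.879 to 42.6, and both Krt15 totals were at or under 3 reads.

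In AE17 tumors the means of Krt5, Krt15 and Krt17 were higher in SC tumors, which rested on a few tumors and did not pass the test, while those of Krt16 were 1.90 (IPL) and 1.93 CPM (SC) and Krt14 had the higher median in IPL tumors. Of the filtered genes, Krt10 had a log2 fold change (IPL minus SC) of -0.41 ± 0.12 with an adjusted p of 0.061, and Krt16 one of -0.02 ± 0.25 with an adjusted p of 0.96. So 0 of 2 members passed, where 5.73% of 14668 genes did. Krt10 had an unadjusted p of 0.0044 and was at the edge of the threshold: its adjusted p ran from 0.019 to 0.34 over 26 alternatives, of which 4 passed (limma, and leaving out IPL tumor 5, SC tumor 1 or SC tumor 3). Within lane 1, its level was 1.67 to 1.88 CPM in the 3 AE17 IPL tumors and 1.96 to 2.97 CPM in the 8 AE17 SC tumors.

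With no filter, 0 of 6 members passed in AE17 tumors, where 1.93% of 28453 genes did, and 4 members had an unadjusted p under 0.05. Krt5 was at -7.56 ± 1.95 on the log2 scale (adjusted p = 0.064). Its adjusted p ran from 0.0050 to 0.68 over 24 alternatives, of which 5 passed: the replicate block, a single fit over all 32 tumors, and leaving out AE17 SC tumor 1, 3 or 4, none of which had more than 1 Krt5 read. Its 371 reads in SC against 1 in IPL tumors gave a ratio of 377 with a counting interval of 67.2 to 14916, which does not cover the spread between tumors. Krt17 was at -3.34 ± 1.05 (adjusted p = 0.11), Krt15 at -2.97 ± 0.91 (adjusted p = 0.11) and Krt14 at -0.60 ± 0.72 (adjusted p = 0.68). DESeq2 called Krt15 alone (adjusted p = 0.014), where it called 9.72% of 18185 genes. A single fit over all 32 tumors called Krt5, Krt15 and Krt17, with adjusted p of 0.0050, 0.015 and 0.024, where 3.43% of 30148 genes passed. Without AE17 SC tumors 5, 6 and 7, a choice made after their counts were seen, the log2 fold changes were -1.08 for Krt5, -0.77 for Krt15, -0.24 for Krt17 and 1.24 for Krt14, and none was called, where 0.157% of 27984 genes passed. Krt14 also changed sign when SC tumor 6 alone was left out (0.27) and with limma (0.35).

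**Figure D2:**
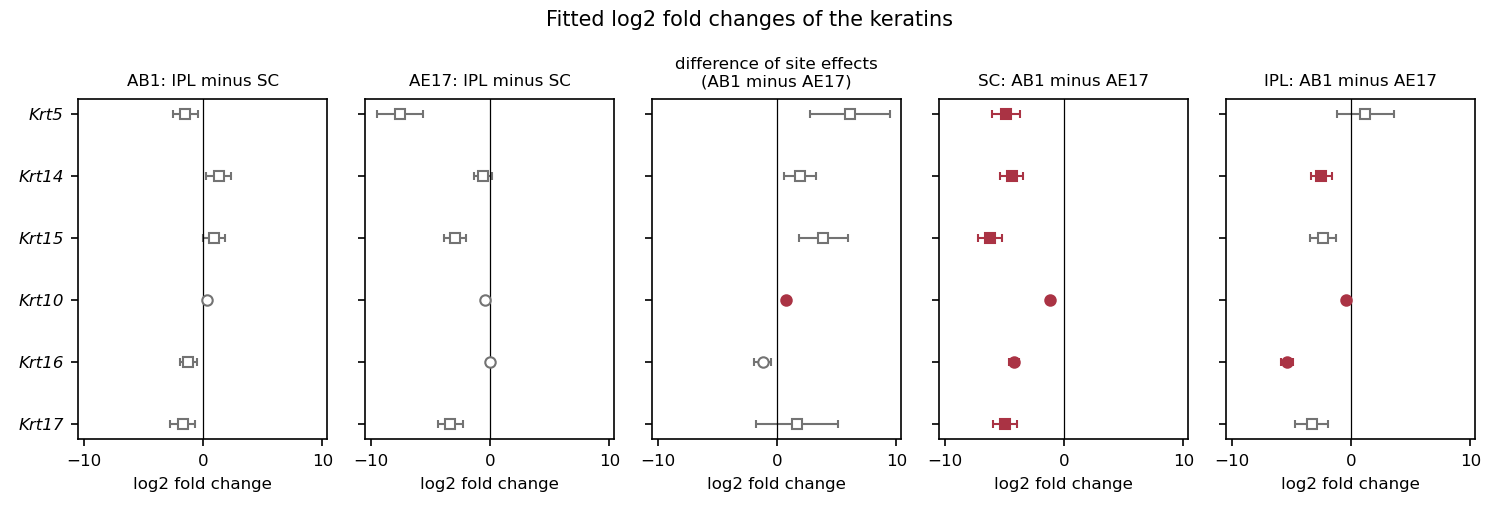
Log2 fold changes of the 6 keratins with their standard errors in the 5 comparisons of edgeR's fits. Circles are from the fit with the count filter and squares from the fit with no filter; filled red symbols have an adjusted p under 0.05. No keratin is filled in either site comparison, and all 6 are filled and below 0 for AB1 against AE17 among SC tumors.

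The difference of the site effects between the lines was tested directly. For Krt10 the site effect in AB1 minus that in AE17 was 0.76 ± 0.21 on the log2 scale with an adjusted p of 0.010, since the IPL mean was above the SC mean in AB1 and below it in AE17. For Krt16 the difference was -1.20 ± 0.71 (adjusted p = 0.25). Thus 1 of 2 members passed, where 20.5% of 15681 genes did. With the lane as a covariate the Krt10 value was 1.02 and its adjusted p 0.10, against 0.0037 to 0.041 for the other alternatives to the fit with the count filter. With no filter 1 of 6 passed, where 9.01% of 30148 genes did. In that fit the Krt10 value was 0.78 (adjusted p = 0.027), and its call was lost with the lane as a covariate (adjusted p = 0.24), without AE17 SC tumor 6 (0.051) and without AE17 SC tumors 5, 6 and 7 (0.71 on the log2 scale, adjusted p = 0.11), when 0 of 6 members passed.

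The lines were compared at each site. Among SC tumors, Krt10 and Krt16 were lower in AB1 than in AE17, with log2 fold changes of -1.17 ± 0.15 (adjusted p = 4.9e-08) and -4.17 ± 0.41 (adjusted p = 2.9e-10). These were 2 of 2 members, where 58.3% of 15681 genes passed. With no filter 6 of 6 members were lower in AB1, where 34.5% of 30148 genes passed in either direction and 17.8% were lower. Krt14 was at -4.38 ± 0.96 (adjusted p = 0.00047), Krt17 at -4.94 ± 0.99 (adjusted p = 0.00015) and Krt5 at -4.89 ± 1.18 (adjusted p = 0.0013). Krt15 had 142 reads in AE17 SC and 1 in AB1 SC tumors, a ratio of 149 with a counting interval of 26.3 to 5927 (adjusted p = 5.3e-06). Without AE17 SC tumors 5, 6 and 7 the Krt5 value was 1.61 and that of Krt17 -1.83, and neither was called (adjusted p = 0.32 and 0.081), while the other 4 members were still called, where 29.3% of 29928 genes passed. With the lane as a covariate Krt10 and Krt16 kept their calls, and Krt5, Krt14, Krt15 and Krt17 did not, with adjusted p of 0.68, 0.15, 0.092 and 0.091.

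Among IPL tumors Krt16 was lower in AB1 by more than among SC tumors, at -5.37 ± 0.47 on the log2 scale (adjusted p = 1.3e-11), and the difference of these values is the interaction above, which did not pass. Krt10 was at -0.41 ± 0.15 (adjusted p = 0.016), so that 2 of 2 members passed, where 63.4% of 15681 genes did. The Krt10 call was lost with limma (adjusted p = 0.071), with no filter (0.066) and with the lane as a covariate (-0.09, adjusted p = 0.85). With no filter 2 of 6 members passed, where 38.3% of 30148 genes did: Krt16 and Krt14, the latter at -2.48 ± 0.84 (adjusted p = 0.019, 0.055 without AE17 IPL tumor 7 and 0.83 with the lane as a covariate). Krt17 had 26 reads in AE17 IPL and 2 in AB1 IPL tumors, a ratio of 14.8 (3.71 to 129; adjusted p = 0.061), and Krt15 18 against 3, a ratio of 6.83 (1.99 to 36.2; adjusted p = 0.081). Krt5, with 1 read in AE17 IPL and 4 in AB1 IPL tumors, gave a ratio of 3.51 of AB1 to AE17 with an interval of 0.348 to 173.

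The AE17 SC tumors that held most Krt5, Krt15 and Krt17 reads also held the most reads of hair keratins. Of 20 named keratins of the hair shaft and inner root sheath, 14 had a row, and their summed level was 19.9 to 109 CPM in AE17 SC tumors 5, 6 and 7 against 0.182 to 7.01 CPM in the other 5. Krt71, a type II keratin of the inner root sheath, had 582, 508 and 92 reads in tumors 5, 6 and 7, 30 in tumor 2, 1 in tumor 3 and none in the other 27 tumors of the series. Tumor 2, with 12 of the 14 hair keratins at 3 or more reads, had 0 reads of Krt5, 4 of Krt17 and 10 of Krt15, so hair keratins were also read without Krt5. Tchh, the trichohyalin that fills inner root sheath cells, had 813, 996 and 127 reads there and 59 in tumor 2. Krt25 and Krt27, type I keratins of the inner root sheath, had 289 and 267 reads in tumor 5 and 269 and 335 in tumor 6. Krt75, the type II keratin of the companion layer, had 49, 76 and 13 reads in the 3 tumors. Thus the tumor with the most Krt71 was tumor 5 and the one with the most Krt5, Krt14, Krt17 and Tchh was tumor 6.

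**Figure D3:**
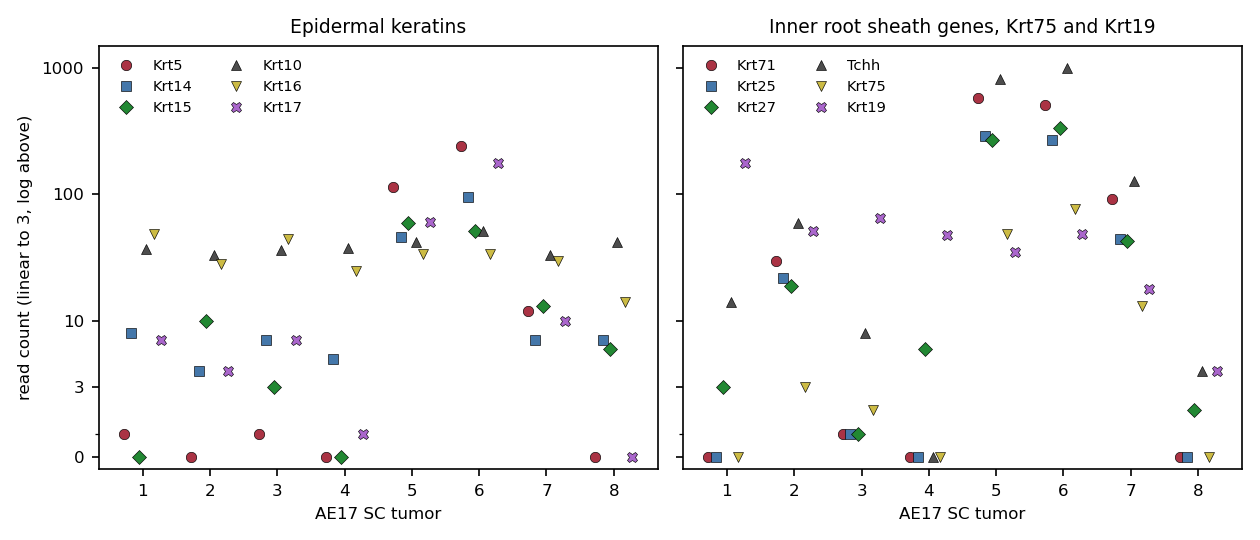
Read counts in each AE17 SC tumor of the 6 epidermal keratins (left) and of Krt71, Krt25, Krt27, Tchh, Krt75 and Krt19 (right); the axis is linear to 3 reads and logarithmic above. Krt5, Krt15 and Krt17 and the hair follicle genes are highest in tumors 5 and 6, with 10 or more reads in tumor 7, whereas Krt10, Krt16 and Krt19 are not confined to these tumors.

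In the other groups the same hair keratins summed to 0.186 to 0.445 CPM (AB1 IPL), 0.294 to 0.894 CPM (AB1 SC) and 0.294 to 1.84 CPM (AE17 IPL), and 11, 11 and 8 of the 14 genes had no read. AB1 SC tumor 3, the AB1 tumor with the most Krt5 and Krt17 reads, had no read of Krt71, Krt25 or Krt27. Of 15 hair follicle genes that are not keratins, 13 had a row, and they summed to 24.6 to 82.9 CPM in AE17 SC tumors 5, 6 and 7 and to 5.42 to 14.3 CPM in the other 5. The 10 skeletal muscle genes also summed higher in these 3 tumors, at 1260 to 1372 CPM against 45.3 to 781 CPM in the other 5, and the 4 melanocyte genes with a row at 0.582 to 1.20 CPM against 0 to 0.239. The part of these cell types in the keratin levels was not tested.

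Genes that anchor keratin filaments or form the barrier were read next to the keratins. In AE17 SC tumors 5, 6 and 7, Perp had 102, 95 and 22 reads, against 0 to 6 in the other 5. Pkp1 had 32, 43 and 7 reads against 0 to 4, and Dsg1a 30, 16 and 6 against 0 to 1. The summed lists overlapped: desmosome genes were at 63.2 to 73.3 CPM in the 3 tumors and 48.8 to 99.1 CPM in the other 5. The part of keratinocytes in these levels was not tested. Of 13 desmosome genes, 9 had a row and 5 were tested across all 32 tumors: 5 of 5 were lower in AB1 among SC tumors and 4 of 5 among IPL tumors, where 29.7% and 31.8% of 15681 genes were lower, with median log2 fold changes of -1.46 and -1.19 against -0.0025 and -0.0043 over all genes tested. With the lane as a covariate 4 of 5 were lower among SC tumors and 1 of 5 among IPL tumors, where 18.2% and 15.5% of all genes were. Dsg2, a desmosomal cadherin, was at -4.34 ± 0.54 (SC) and -5.83 ± 0.55 (IPL), and Jup, the plakoglobin of desmosomes and adherens junctions, was at -1.12 ± 0.15 (SC) and -0.07 ± 0.14 (IPL). Jup was higher in IPL than in SC tumors of both lines, by 1.60 ± 0.14 in AB1 (adjusted p = 3.9e-06) and 0.57 ± 0.14 in AE17 (adjusted p = 0.028), a direction that no member shared past the test. The AE17 call of Jup was lost in 7 of the 16 fits that left out a tumor (adjusted p up to 0.061) and with the lane as a covariate (0.29). Of 15 genes of basal adhesion and identity, 13 had a row and 10 were tested: among SC tumors 5 were lower and 1 higher in AB1, and among IPL tumors 4 were lower and 3 higher. These were 6 and 7 of 10 genes called, near the 58.3% and 63.4% of all genes tested. Itga6, an integrin subunit of the hemidesmosome, was lower in AB1 at -0.60 ± 0.13 (SC) and -0.82 ± 0.13 (IPL), and Dst, the dystonin that links keratin to it, was not called at either site. Between the sites of AB1, 5 of 8 tested genes of this list were higher in IPL than in SC tumors and none was lower, where 12.3% of 14645 genes were higher, while no member passed the test. Itgb4, the integrin that pairs with Itga6, was among these at 1.09 ± 0.20 on the log2 scale, with Col17a1, a hemidesmosomal collagen, at 0.69 ± 0.20 and Lgals7 at 0.54 ± 0.18. Trp63, a transcription factor of basal cells and also called, was at 2.30 ± 0.79 CPM in AB1 IPL and 1.13 ± 0.55 CPM in AB1 SC tumors. Itgb4 was at 27.1 ± 8.9 CPM in AB1 IPL and 12.6 ± 3.3 CPM in AB1 SC tumors. Below 0 and not called were Itga6, at -0.15 ± 0.15 (adjusted p = 0.49), and Sfn, at -0.55 ± 0.21 (adjusted p = 0.069). The count was 3 of 10 in the fit over all 32 tumors, where 16.1% of genes were higher, 1 of 8 with the replicate block (7.37%) and 0 of 8 with the lane as a covariate (0.731%), and limma called 4 higher (15%) and 1 lower. Markers of other tissues moved with these genes: 9 of 10 skeletal muscle genes and 2 of 4 tested adipocyte genes were also higher in AB1 IPL tumors. The muscle genes summed to 108 to 4637 CPM in AB1 IPL and 53.4 to 511 CPM in AB1 SC tumors, and the 6 adipocyte genes with a row to 39.6 to 328 and 28.2 to 61.6 CPM. The part of these tissues in the result was not tested. In AE17 tumors 1 of 10 genes was higher and 1 lower in IPL tumors, where 2.6% and 3.13% of 14668 genes were. Itgb4 ran the other way there, with 19 to 98 reads in AE17 IPL and 66 to 360 in AE17 SC tumors. Lgals7, a galectin of stratified epithelia, was the other way round from the keratins, at 2.23 ± 0.32 (SC) and 4.07 ± 0.36 (IPL) for AB1 minus AE17.

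Genes of barrier stress and of the cornified layers were read beside Krt16. Of 15 named genes of barrier stress and wounding, 11 had a row and 5 were tested: 4 of 5 were lower in AB1 among SC tumors and 5 of 5 among IPL tumors, against the same 29.7% and 31.8% of all genes, with median log2 fold changes of -3.30 and -5.07. With the lane as a covariate these counts were 4 and 2 of 5, where 18.2% and 15.5% of all genes were lower. Sprr1a, a cornified envelope precursor, had 74 to 375 reads in AE17 IPL and 17 to 272 in AE17 SC tumors, against 0 to 10 and 0 to 3 in AB1 IPL and SC tumors. Serpinb2, a protease inhibitor, was at 160 ± 48 CPM (AE17 IPL), 86.9 ± 41 (AE17 SC), 4.74 ± 9.4 (AB1 IPL) and 9.41 ± 6.4 (AB1 SC). Areg, a ligand of the EGF receptor, was at -3.30 ± 0.22 (SC) and -3.71 ± 0.22 (IPL) on the log2 scale, AB1 minus AE17. Ereg, a further ligand of that receptor, differed less, with group means of 20.8 ± 5.1 CPM (AE17 IPL), 27.6 ± 9.2 (AE17 SC), 12.8 ± 5.9 (AB1 IPL) and 19.7 ± 3.8 (AB1 SC) and ranges that overlapped between the lines. Its log2 fold changes were -0.49 ± 0.23 (SC; adjusted p = 0.069) and -0.70 ± 0.23 (IPL; adjusted p = 0.0096). None of the tested genes of this list, 3 in AB1 and 5 in AE17, differed between the sites past the test, where 23% and 5.73% of all genes did. Without AB1 IPL tumor 2, Serpinb2 was lower in IPL than in SC tumors of AB1, at -2.69 (adjusted p = 0.00065, against 0.37 with it).

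Of 27 cornified envelope genes, 24 had a row and 6 were tested: 4 were lower and 1 higher in AB1, both among SC and among IPL tumors, so that 5 of 6 were called at each site against 58.3% and 63.4% of all genes. With the lane as a covariate 4 were still lower among SC tumors and 1 among IPL tumors, where 18.2% and 15.5% of all genes were lower. Of the 24 genes, 14 had under 3 reads in every AE17 IPL tumor and 10 in every AE17 SC tumor. In the AB1 IPL and SC tumors these numbers were 13 and 16. Flg and Flg2, of the same list, had no read in any tumor, and Lor had 0 to 5. Cdsn, the corneodesmosin that holds cornified cells together, was at 10.9 ± 2.1 CPM (AE17 IPL) and 6.80 ± 2.5 (AE17 SC) against 0.245 ± 0.13 (AB1 IPL) and 0.383 ± 0.26 (AB1 SC). Sbsn, suprabasin, was lower in AB1 by -2.21 ± 0.37 (SC) and -1.30 ± 0.35 (IPL) on the log2 scale. Asprv1, the protease that processes filaggrin, was higher in AB1 by 1.07 ± 0.27 (SC) and 1.52 ± 0.28 (IPL). AE17 IPL tumor 1, the highest for Krt16, was also the highest for Sprr1a, Serpinb2 and Areg, with 375, 3995 and 583 reads, and had 144 reads of Cdsn, within the group's range of 121 to 222. With the lane as a covariate the calls among IPL tumors were lost for Sprr1a (adjusted p = 0.95), Ereg (0.57), Sbsn (0.50) and Dsg2 (0.16).

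**Figure D4:**
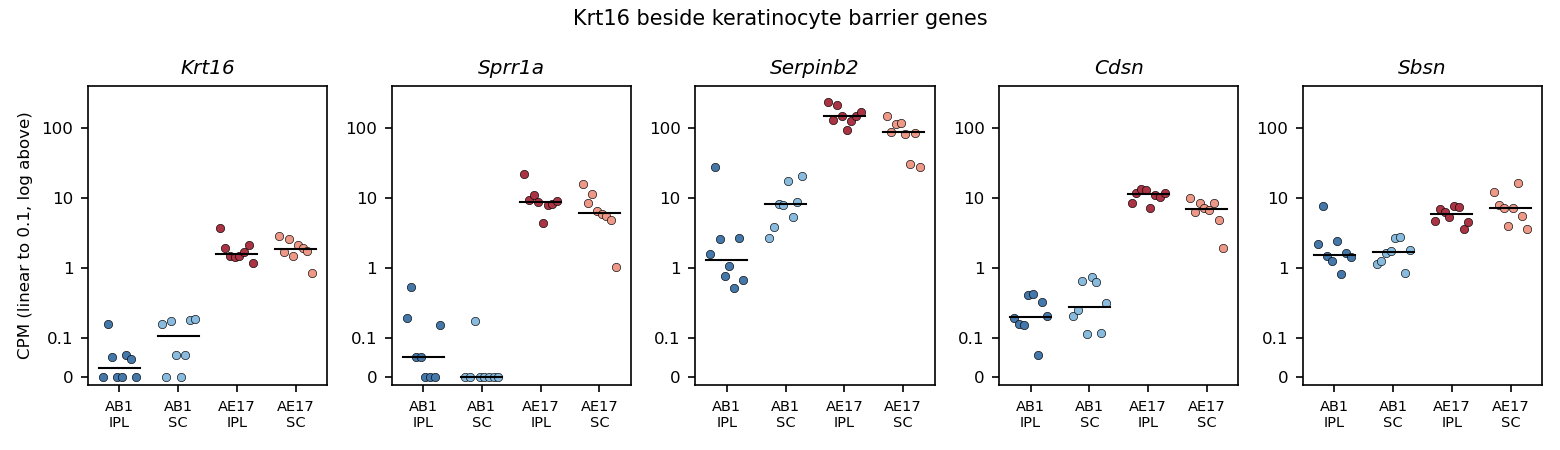
CPM of Krt16, Sprr1a, Serpinb2, Cdsn and Sbsn in each tumor by group (8 tumors a group; bars are medians; the axis is linear to 0.1 CPM and logarithmic above). For Krt16, Sprr1a and Cdsn every AE17 tumor is above every AB1 tumor, and for all 5 genes the IPL and SC tumors of a line overlap. The share of all genes that separate the lines in this way was not counted.

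Krt14 also stood beside the genes of mesothelial cells. Of 7 named mesothelial genes, 5 had a row; Wt1 is a transcription factor, Upk3b a uroplakin and Lrrn4 a membrane protein of the mesothelium. In AE17 IPL tumors 1 to 8 Upk3b had 0, 93, 28, 29, 33, 55, 114 and 29 reads beside the 12, 25, 3, 9, 9, 16, 41 and 6 reads of Krt14. AB1 IPL tumor 2, the highest AB1 tumor for Krt14, had 590 Upk3b, 449 Lrrn4 and 206 Wt1 reads, where the other 7 AB1 IPL tumors had 0 to 10, 0 to 38 and 3 to 19. In the AE17 SC tumors Upk3b was at 0 or 1 read while Krt14 was at 4 to 95. The mesothelial genes summed to 1.03 to 80.1 CPM (AB1 IPL), 1.10 to 3.26 (AB1 SC), 4.03 to 24.9 (AE17 IPL) and 3.49 to 9.76 (AE17 SC). Upk3b was at 0 or 1 read in every SC tumor of both lines, and Lrrn4 at 0 to 3 reads. Other genes of the list were read under the skin as well. Bnc1 had 49 to 157 reads in AE17 SC and 53 to 146 in AE17 IPL tumors, and 4 to 25 in AB1 SC tumors. Wt1 had 6 to 42 reads in AB1 SC tumors and 0 to 5 in AE17 SC tumors. The part of mesothelial cells in the Krt14 level was not tested.

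**Figure D5:**
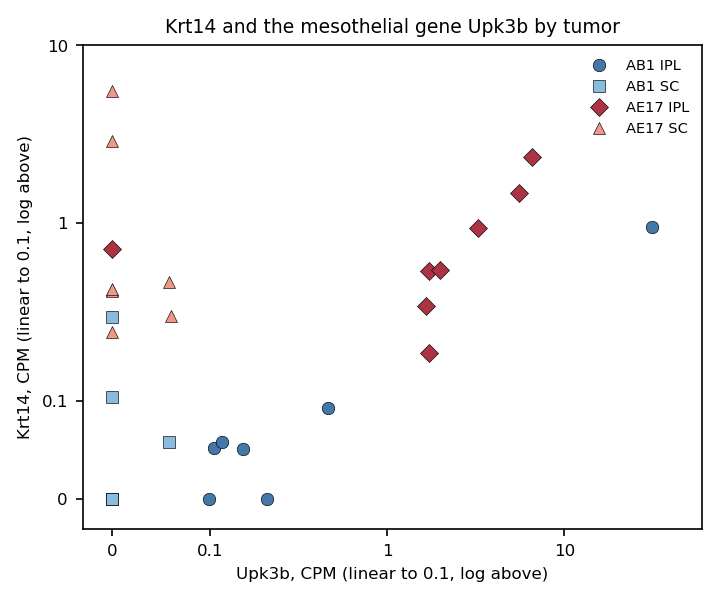
CPM of Krt14 against CPM of the mesothelial gene Upk3b in 32 tumors, with a symbol for each group (both axes are linear to 0.1 CPM and logarithmic above). The 3 AE17 IPL tumors with the most Upk3b have the most Krt14 of that group, tumor 1 has 12 reads of Krt14 and none of Upk3b, and the AE17 SC tumors have Krt14 with 0 or 1 Upk3b read.

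Simple epithelial keratins, the kind known from mesothelium, were read as well. Of 6 named, 4 had a row and 3 were tested between the lines: among SC tumors 1 was lower and 1 higher in AB1, where 58.3% of all genes were called, and among IPL tumors 1 was lower, where 63.4% were called. Krt19, a type I keratin of simple and ductal epithelia, had 29 to 195 reads in AE17 IPL and 4 to 176 in AE17 SC tumors, against 0 to 7 in AB1 SC tumors. In the AB1 IPL tumors it had 186 reads in tumor 2, the tumor with 590 Upk3b reads, and 1 to 6 in the other 7, so that the group mean was 1.39 CPM with tumor 2 and 0.181 CPM without it. It was lower in AB1 at -5.05 ± 1.04 (SC; adjusted p = 0.00011) and -2.0 ± 0.76 (IPL; adjusted p = 0.022). The IPL value was -4.87 without AB1 IPL tumor 2 (adjusted p = 4.3e-08) and 0.14 with the lane as a covariate (adjusted p = 0.96), and with no filter its adjusted p was 0.051. Krt7, the type II keratin that often pairs with it, was higher in IPL than in SC tumors of AB1 by 1.91 ± 0.55 (adjusted p = 0.018) and did not differ past the test between the lines. AB1 IPL tumor 2 had 137 Krt7 reads and the other 7 had 7 to 25, and without it the difference was 1.05 (adjusted p = 0.018), with a group mean of 0.931 in place of 1.72 CPM. The Krt7 call was lost with the replicate block (adjusted p = 0.070) and with the lane as a covariate (0.22). Krt20, a type I keratin of the gut lining, was higher in AB1 than in AE17 among SC tumors by 2.08 ± 0.61 (adjusted p = 0.0042, and 0.25 with the lane as a covariate), with group means of 1.60 ± 1.0 and 0.375 ± 0.19 CPM. Among IPL tumors it was at 0.70 ± 0.63 (adjusted p = 0.34), and at -0.42 without AB1 IPL tumor 5, which had 59 reads of Krt20. Among the other epidermal keratins, 8 of 12 named genes had a row and none passed the count filter. Krt13, of mucosal epithelia, had 0 to 21 reads a tumor, and Krt2 and Krt77, of the upper epidermis, had no read in any tumor.

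Genes whose levels ran most like a member's were named over the 32 tumors by Spearman's rho of the log2 CPM, which was possible for Krt10 and Krt16, the members with 10 reads in at least 8 tumors. For Krt10 these were Arhgef19 (0.92), Greb1 (0.92) and Capn6 (0.91), and for Krt16 Spint1 (0.91), Atp8b5 (0.90) and Pctp (0.89). The 32 points share lines, sites and lanes, and within the 4 groups Pearson's r of the same pairs was 0.27 to 0.51. Spint1, an inhibitor of epithelial serine proteases, was at 22.9 and 21.8 CPM in AE17 IPL and SC tumors and at 0.482 and 0.623 CPM in AB1 IPL and SC tumors, the pattern of Krt16 at a higher level.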

How the data were processed

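The authors deposited gene counts (whole reads per gene, not normalized) of 32 libraries made from polyA RNA and sequenced as 50-base single-end reads. Per the labels and the study's methods, reads were demultiplexed with bcl2fastq 1.8.4, aligned with HISAT2 2.0.4 and counted per gene; the methods name the mouse genome mm11, which is no standard build, and the strand setting is not given in the sources used here. Of 39676 gene IDs, 39495 matched GENCODE M21 (GRCm38), whose coordinates and sequences are used; where Krt10 and Gm11940 (0 to 3 reads a tumor) overlap on opposite strands, in 2.37% of the 50-base words of Krt10, their reads cannot be told apart.

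Counts were scaled to CPM with TMM factors. Comparisons were fitted with edgeR 4.0.16 (quasi-likelihood, two-sided, Benjamini-Hochberg adjustment over all genes tested, threshold 0.05) in R 4.3.3, per line for the sites and over 32 tumors for the other comparisons, with filterByExpr; members that failed this filter are given from a fit with no filter, an addition made after seeing the data. DESeq2 1.42.0, limma 3.58.1 (voom with quality weights), other scalings and filters, the lane, the replicate number and leaving out each tumor were alternatives. Values after ± are SEs for log2 fold changes and SDs for CPM. Ratios of few reads have exact 95% counting intervals. On simulated counts the fits recovered 95.5% to 97.4% of changed genes.

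The members and lists were chosen with earlier results of these data known. Beside the members, the text names of each list at most the 4 genes with the highest mean CPM over 32 tumors. It also names the 3 genes most like each member with 10 counts in at least 8 tumors. Gm11597, Krt2, Krt77, Itgb4, Trp63, Col17a1, Perp, Pkp1, Dsg1a, Sfn, Flg, Flg2 and Lor were named after their values were seen. No RefSeq protein was used here.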

Additional observations from a re-analysis of the deposited data

Results flagged for a closer look

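Of 24 combinations of a member and a group, 17 had a tumor with more than 3 reads, and in 6 of them the highest tumor stood apart from the other 7 by Dixon's criterion for 8 samples. Chance flags about 1 in 20 groups of normal values, but that rate cannot be set beside these 6: a group was examined only where its highest tumor passed 3 reads, and in several groups the other tumors had 0 to 2 reads. The values are therefore a description. In AB1 SC tumor 3, Krt5 was at 0.648 CPM, Krt17 at 0.353 CPM and Krt14 at 0.294 CPM. In AB1 IPL tumor 2, Krt14 was at 0.957 CPM against 0.0930 CPM in the next tumor. In AE17 IPL tumor 1, Krt16 was at 3.80 CPM against 2.13 CPM in the next tumor. In AE17 SC tumor 6, Krt17 was at 10.3 CPM against 3.86 CPM in tumor 5. The site effect on Krt10 differed between the lines by a test of the difference, at 0.76 on the log2 scale (AB1 minus AE17).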

How the results depend on the processing

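Of 179 recomputed counts of called members, 166 were within 1.5 times the reported count. In AE17 tumors the count between sites was 1 in place of 0 with limma and with DESeq2 (which called 27% and 9.72% of all genes), and 0 to 1 over 16 tumors left out. The interaction count was 0 at an adjusted p under 0.01 and with the lane (9.65% and 0.746%), and 0 in place of 1 of 6 with no filter and without AE17 SC tumors 5, 6 and 7 (4.28%). Among SC tumors the count was 6 with DESeq2 and with no filter (44.5% and 34.5%). Among IPL tumors it was 1 at an adjusted p under 0.01, with limma and with the lane (53.2%, 67.3% and 31.9%), and 5 with DESeq2 (48.8%).

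Signs changed in 17 of 1024 values of single members. With limma Krt14 was at 0.35 between AE17 sites and -0.29 for the interaction. With the lane Krt17 was at 1.54 between AB1 sites and 0.24 between lines among IPL tumors. Without AE17 SC tumors 5, 6 and 7 (added after seeing the data) Krt14 was at 1.24 between AE17 sites, Krt5 at -0.40 and Krt17 at -1.45 for the interaction, and Krt5 at 1.61 between lines among SC tumors. Over left-out tumors Krt5 and Krt14 ran from -1.70 to 1.14 and from -0.55 to 2.33 between AB1 sites, and Krt14 and Krt16 from -0.99 to 0.27 and from -0.24 to 0.071 between AE17 sites. The cause was not tested.

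Same-numbered IPL and SC tumors deviated together little, with a mean r of -0.12 in AB1 and 0.07 in AE17. For tumors of other numbers it was 0.02 and -0.007. From 0 to 3 of 8 tumors correlated best with their own number. Weak correlations of this kind show no clear pairing but cannot exclude one. With the replicate block the counts of called members were 0, 0, 1, 2 and 2, as reported, while 2263 in place of 3374 genes passed between AB1 sites and 661 in place of 840 between AE17 sites; with no filter the block added Krt5 between AE17 sites (-7.25, adjusted p = 0.011) and Krt15 and Krt17 between lines among IPL tumors (-2.70 and -3.73). With the lane 386 genes passed between AB1 sites and 1 between AE17 sites. Total counts in place of TMM moved no group mean by more than its SD. Depth left 4 or 5 of 6 members under the count filter, so differences of a few reads were not detectable.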

Other observations

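Markers of other epithelia known for some of these keratins were read in the AE17 SC tumors, with tumors 5, 6 and 7, which had the most Krt5 reads, set beside the other 5. The 7 sebaceous gland genes with a row summed to 152 to 177 CPM in the former and 157 to 222 CPM in the latter, the 7 mammary epithelium genes to 0.952 to 2.66 and 0.424 to 3.55, the 7 airway genes to 6.23 to 11.1 and 4.64 to 9.14, the 6 thymic epithelium genes to 7.74 to 11.5 and 10.0 to 14.6, and the 6 genes of stratified mucosa to 20.8 to 34.7 and 5.98 to 36.3. The ranges of each of these lists overlapped, unlike those of the hair keratins. Soat1, at 177 CPM over the 32 tumors, made up most of the sebaceous sum, and Sox2, at 13.9 CPM, most of the mucosal sum, and both genes are also used outside these tissues. The 6 adipocyte genes summed to 37.7 to 74.8 CPM in tumors 5, 6 and 7 and to 10.7 to 48.2 CPM in the other 5.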
